A study of Mus musculus with 12 samples.

Results

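A pancreatic β cell releases insulin when its own metabolism reports that glucose is high, and 9 genes that carry out this sensing or prepare insulin for release were followed across the cJun and H3K4me3 peaks of Min6 cells. The genes were Slc2a2, G6pc2 and Abcc8 of glucose sensing, Pcsk1, Pcsk2 and Cpe of proinsulin processing, Slc30a8 and Ptprn of the insulin granule, and Ucn3, a hormone of mature β cells. They are 9 of the 21755 protein-coding genes considered, and were chosen by function, with earlier results of these data known. The shares of all genes set beside their counts below are therefore descriptive. All peaks within 50 kb of their gene bodies were taken from 4 peak lists, which gave 75 peaks in all.

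The lists come from CUT&RUN, in which an antibody-tethered nuclease cuts out the DNA around a bound protein. Min6 is a mouse insulinoma line, and all groups were cultures of this line that differed in treatment and antibody. For 48 hours the cells received either 20 µM SP600125, which inhibits the cJun N-terminal kinases (JNKi), or the solvent DMSO. Each treatment was combined with an antibody to the transcription factor cJun, to the promoter mark H3K4me3, or with a non-binding IgG, in 2 biological replicates, which makes 6 groups and 12 samples. Both replicates of a group were merged into 1 list, which keeps the value and interval of each replicate for the peaks called in both. No test of the treatment was made, since 2 values against 2 cannot give an exact two-sided p below 0.333. The nominal sequencing depth was the same for every library, and the depth reached is not known from the lists. SP600125 was the only inhibitor used, so inhibition of the kinases and any other action of this compound cannot be told apart.

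Glucose enters the mouse β cell through the transporter encoded by Slc2a2 and is phosphorylated by glucokinase, a step that the glucose-6-phosphatase subunit G6pc2 opposes. The ATP formed closes potassium channels built from the sulfonylurea receptor Abcc8 and the pore Kcnj11, and the cell depolarises. In the granule, the convertases Pcsk1 and Pcsk2 cut proinsulin, carboxypeptidase E (Cpe) trims the exposed basic residues, and the zinc transporter Slc30a8 supplies the zinc with which insulin crystallises. Ptprn is a phosphatase-like protein of the granule membrane. Ucn3 is a peptide stored with insulin and released with it. cJun is a subunit of AP-1, a dimer that binds the 7-base site TGACTCA, which reads TGAGTCA on the other strand. The related element TGACGTCA, the CRE, is bound by dimers of cJun with ATF proteins and by CREB.

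Each peak carries a −log10 p against IgG from each replicate, and the peak's own value is the lower of these. Its percentile is the share of the peaks of its list with a value at or below it. The irreproducible discovery rate (IDR) is used here in its global form. It estimates the share of irreproducible peaks among those at least as consistent between the replicates as the peak in question. The lists held 4960 cJun peaks in DMSO, 1632 cJun peaks in JNKi, 19372 H3K4me3 peaks in DMSO and 19032 in JNKi. IDR was at most 0.05 for 8.97% and 15.6% of the cJun peaks and for 73.0% and 75.6% of the H3K4me3 peaks. Of 6 β cell marker genes, 5 had H3K4me3 at a start site in each list, the exception being Ins1, against 2 of 14 markers of other cells in DMSO (Gcg and Col1a1) and 1 of 14 in JNKi (Gcg).

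In DMSO, 8 of the 9 genes had a cJun peak within 50 kb, as did 28.4% of all protein-coding genes and 38.2% of those with H3K4me3 at a start site. In JNKi, 4 of the 9 had one (Slc2a2, Abcc8, Slc30a8 and Ptprn), against 12.2% of all genes and 16.5% of the marked ones. The same 4 genes had a peak in both lists, against 10.2% of all genes. The 9 genes are long, with a median length of 40.2 kb against 17.4 kb for all protein-coding genes, and a longer gene has a longer window. Per length of window, they held 12 DMSO cJun peaks per Mb, and the windows of all protein-coding genes held 2.53. For the JNKi list these densities were 3.32 and 0.837 peaks per Mb. Ucn3, the shortest of the 9, had no cJun peak in either list, the nearest lying 246 kb away in DMSO and 826 kb in JNKi.

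The windows held 18 cJun peaks in DMSO and 5 in JNKi. Of the DMSO peaks, 10 had their summit in an intron of the gene, 5 upstream and 3 downstream. The start site nearest to the peak was that of the gene itself for 12 of the 18 DMSO peaks and 2 of the 5 JNKi peaks, so the assignment to a gene by distance is loose. Most were peaks of middling rank, with a median percentile of 56.4 in DMSO (range 6.01 to 93.8) and 45.9 in JNKi (13.8 to 81.3). An IDR of 0.05 was met by 2 of the 18 DMSO peaks, both at Abcc8, and by 0 of the 5 JNKi peaks. At the edge of the window, the farthest DMSO peak inside it lay 40393 bp from G6pc2 at percentile 66.8, and the nearest outside it lay 69375 bp from Cpe at percentile 85.0.

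The sequence beneath the peaks is shown first for the AP-1 sites, because they are where cJun could contact DNA directly. An AP-1 site lay anywhere in 7 of the 18 DMSO peaks, against 32.6% of all DMSO cJun peaks, and in 3 of the 5 JNKi peaks, against 35% of all JNKi cJun peaks. Within 100 bp of the summit, the counts were 2 of 18 (background 10%) and 1 of 5 (background 12.1%). The 7 DMSO peaks belonged to 6 genes and held 9 sites, and the 4 sites in the JNKi peaks were among these. The DMSO shares were near their backgrounds, and 5 JNKi peaks are too few to set against theirs. Each stretch below is the plus strand of GRCm38 with the sites in capitals.
Abcc8, chr7:46128228-46128274: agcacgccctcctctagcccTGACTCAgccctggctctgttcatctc
Abcc8, chr7:46131330-46131403: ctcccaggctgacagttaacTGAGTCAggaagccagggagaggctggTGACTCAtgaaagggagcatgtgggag
Pcsk1, chr13:75163760-75163806: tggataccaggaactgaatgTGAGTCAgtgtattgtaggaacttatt
Pcsk2, chr2:143545530-143545576: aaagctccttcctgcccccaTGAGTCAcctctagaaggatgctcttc
Cpe, chr8:64629469-64629515: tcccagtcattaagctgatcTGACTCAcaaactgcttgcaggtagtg
Slc30a8, chr15:52316457-52316503: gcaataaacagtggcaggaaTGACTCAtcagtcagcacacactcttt
Ptprn, chr1:75263373-75263450: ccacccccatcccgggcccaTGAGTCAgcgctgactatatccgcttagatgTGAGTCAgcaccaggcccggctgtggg

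Abcc8 and Ptprn each held a pair of sites within a short stretch. The site closest to a summit was that of Pcsk2, 25 bp away, followed by the nearer Ptprn site at 49 bp and the first Abcc8 site at 65 bp from the JNKi summit. The others lay 80 to 265 bp from the summits. These distances are from the summit of the merged peak. The replicate summits lay 385 bp apart at the Pcsk2 peak, 296 bp at the Ptprn peak and 192 bp at the Abcc8 JNKi peak. How close these sites lie to a summit is therefore not settled. No CRE lay in any of the 23 cJun peaks, against 3.1% of all DMSO and 5.21% of all JNKi cJun peaks.

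Slc2a2 (chr3:28697903-28731359, plus strand) had 3 cJun peaks in DMSO and 1 in JNKi. A peak upstream of the start site (chr3:28696409-28696720) had replicate values of 5.83 and 7.49 and stood at percentile 48.4. A weaker one in an intron (chr3:28701548-28702302) had 4.90 and 3.46 and stood at percentile 6.01, the lowest of the 18. Neither was overlapped in JNKi. The third, 5523 bp downstream of the gene (chr3:28736882-28737763), had 6.60 and 6.68 in DMSO and was overlapped in JNKi (chr3:28736863-28737961) by a peak with 9.48 and 5.92. The percentile of this shared peak was 59.2 in DMSO and 45.9 in JNKi. It held no AP-1 site, and the sequence around its DMSO summit is shown as the example of a shared peak without one.
Slc2a2, chr3:28737185-28737285: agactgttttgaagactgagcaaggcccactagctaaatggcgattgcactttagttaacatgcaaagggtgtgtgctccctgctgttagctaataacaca

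G6pc2 (chr2:69211073-69227841, plus strand) had 2 cJun peaks in DMSO, neither near its start site. The first (chr2:69170194-69170680) lay closest to the start site of the neighbouring gene Nostrin, with replicate values of 9.21 and 7.28. The second (chr2:69247816-69249037) lay downstream, 19975 bp from the gene, with values of 9.92 and 6.31. The JNKi list had no peak here, and its nearest lay 419 kb from the gene.

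Abcc8 (chr7:46104523-46180033, minus strand) carried the 3 highest-ranked cJun peaks of the set, all in introns and within a span of 9657 bp. The first (chr7:46122699-46124276) had replicate values of 13.2 and 16.9 and an IDR of 0.037, at percentile 92.8. The second (chr7:46127915-46129169) had 12.4 and 10.3, at percentile 85.7. The third (chr7:46130754-46132355) had 14.2 and 16.8 and an IDR of 0.028, at percentile 93.8. Another intronic peak (chr7:46145732-46146375), 14702 bp from the third by summit, was weaker, with 6.03 and 11.

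The second and the third Abcc8 peaks, which hold the 3 AP-1 sites printed above, were overlapped in JNKi. The JNKi peak over the second (chr7:46127948-46129141) had values of 9.73 and 9.71 at percentile 81.3. That over the third (chr7:46130743-46131977) had 15.8 and 7.95 at percentile 69.7, so its replicates lay further apart. The first peak, with DMSO values close to those of the third, had no counterpart in JNKi and held no AP-1 site. Windows of the same size around the DMSO summits of the 2 shared peaks also held no AP-1 site, as their sites lay 119 to 162 bp away. The bases around the summit of the first peak are given below.
Abcc8, chr7:46123513-46123613: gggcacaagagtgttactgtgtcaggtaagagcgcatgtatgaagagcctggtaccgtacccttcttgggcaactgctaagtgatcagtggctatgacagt

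Across all genes, 9.61% had at least 2 DMSO cJun peaks within 50 kb and 1.81% had at least 4, as Abcc8 did. Kcnj11, the pore subunit of the same channel, begins 3759 bp beyond the end of Abcc8, and its start site was the nearest one to the first 3 peaks. The same 4 DMSO and 2 JNKi peaks therefore fall in the windows of both channel genes, and distance does not assign them to either.

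**Figure D1:**
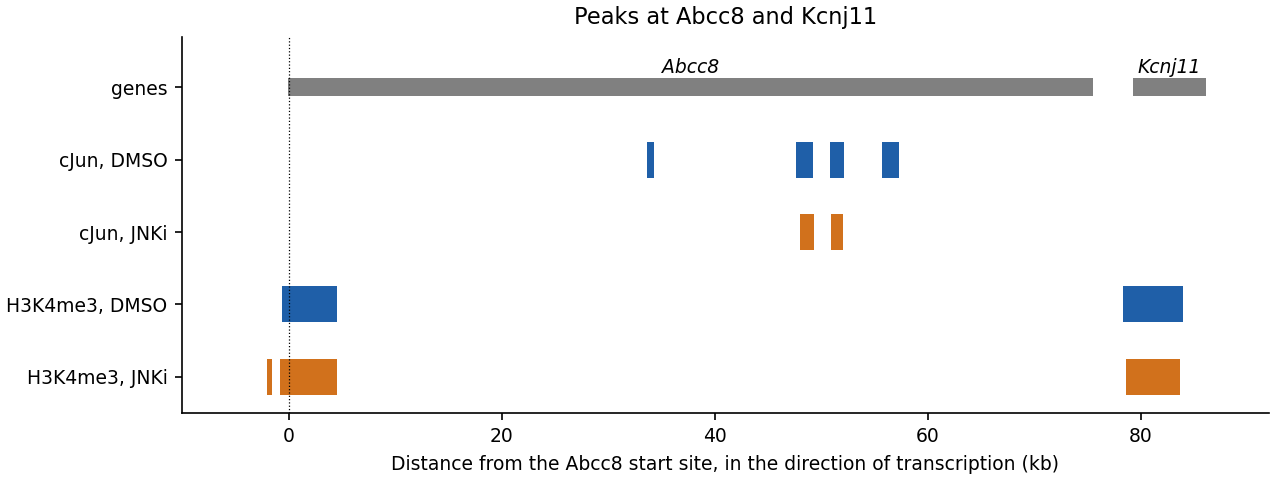
Peaks at Abcc8 and Kcnj11 by distance from the Abcc8 start site in kb, in the direction of transcription, with DMSO in blue and JNKi in orange. Of 4 intronic DMSO cJun peaks, 2 are overlapped in JNKi, and both H3K4me3 peaks over the start sites are present in both treatments.

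Among the processing enzymes, none had a cJun peak in JNKi. Pcsk1 (chr13:75089826-75134861, plus strand) had 1 DMSO peak, 28820 bp downstream (chr13:75163681-75164064), with low replicate values of 4.30 and 4.40 at percentile 20.5. Pcsk2 (chr2:143546156-143816285, plus strand) had 2. The stronger lay just upstream of the start site (chr2:143545156-143545961), with values of 8.07 and 10.1 at percentile 73.9, and contains the AP-1 site nearest to a summit. Its summit is 628 bp from the start, inside the H3K4me3 peak of the gene. The other, in an intron (chr2:143641226-143641715), had 7.64 and 6.38. Cpe (chr8:64592542-64693054, minus strand) had 2 intronic peaks, with 6.04 and 9.34 (chr8:64615258-64616104) and with 7.85 and 5.30 (chr8:64629258-64630184). For these 3 genes the nearest JNKi cJun peak lay 2462 kb or more away.

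Slc30a8 (chr15:52295553-52335798, plus strand) had 1 intronic cJun peak, present in both lists. In DMSO it covered chr15:52315406-52316721 with values of 9.91 and 5.42 at percentile 40.4. In JNKi it was narrower (chr15:52315958-52316715), with 9.47 and 4.55 at percentile 25.1, and both intervals include the AP-1 site. In each list the second replicate was the weaker.

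Ptprn (chr1:75247027-75264502, minus strand) had 3 DMSO cJun peaks, none overlapped in JNKi. The first (chr1:75263202-75263772) lay in an intron near the start site, over the pair of AP-1 sites, with values of 11.6 and 6.65 at percentile 60.2. The second (chr1:75277997-75278634), with 7.61 and 6.61, lay at the start site of the neighbour Resp18. The third (chr1:75283303-75283664), with 13.2 and 6.04, lay further upstream of Ptprn. The JNKi list had a different peak, 35988 bp downstream at the start site of Glb1l (chr1:75210434-75211039), with 6.84 and 4.0 at percentile 13.8. It was the 1 JNKi peak of the 5 without a DMSO counterpart, so Ptprn had a peak in both lists but no peak in common.

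**Figure D2:**
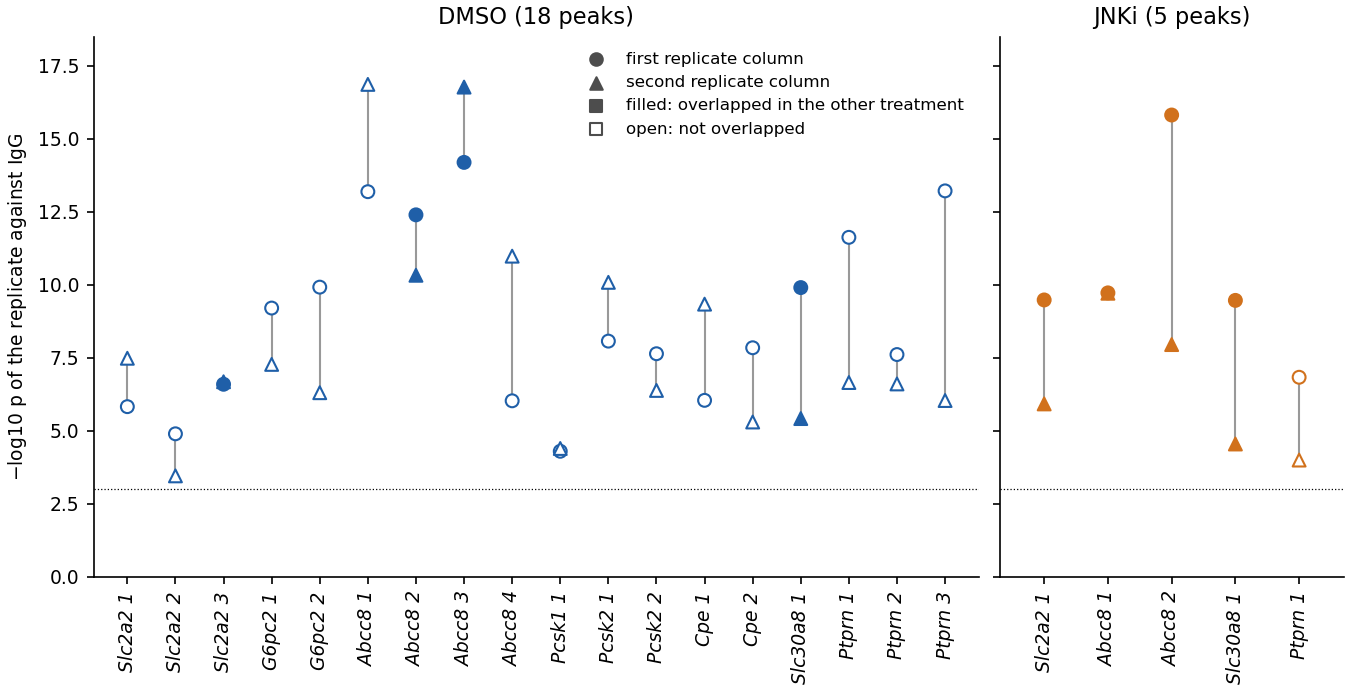
Replicate −log10 p against IgG of the 18 DMSO and 5 JNKi cJun peaks, numbered in genome order within each gene, with circles for the first and triangles for the second replicate column and a dotted line at 3. Filled points, which are peaks overlapped in the other treatment, are 4 of 18 in DMSO and 4 of 5 in JNKi.

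Of the 18 DMSO cJun peaks, 4 were overlapped by a JNKi peak, against 23.6% of the whole DMSO list. In the other direction, 4 of the 5 JNKi peaks were overlapped in DMSO, against 72% of the JNKi list. The 4 shared DMSO peaks had a median percentile of 72.5 and a median width of 1285.5 bp, and the 14 others 53.6 and 641 bp. Over the whole list, shared peaks stood at a median percentile of 76.4 with a median width of 910 bp, and the others at 43.5 and 592 bp. The share of DMSO peaks overlapped in JNKi therefore ran near that of the whole DMSO list, and 5 JNKi peaks are too few to set against theirs.

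All 4 shared peaks stood lower in the JNKi list than in the DMSO list, as did 71.8% of all 1169 shared DMSO peaks. The median shift was −14.3 percentile points for the 4 and −11.6 for all. The lists differ in length, so that a shift in percentile is not a change in binding.

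The 4 shared peaks also all lay outside H3K4me3. Of the 18 DMSO peaks, 6 lay over an H3K4me3 peak of the same treatment, against 53.4% of the DMSO list, and 1 of the 5 JNKi peaks did, against 55.5% of the JNKi list. The 6 were the upstream Slc2a2 peak, the downstream G6pc2 peak, the start-site Pcsk2 peak and the 3 Ptprn peaks. Of these 6, 0 were overlapped in JNKi (22.7% of all DMSO cJun peaks over H3K4me3 were), and of the 12 outside H3K4me3, 4 were (24.5% of all). In the list as a whole the share thus differed little with the mark.

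All 9 genes had an H3K4me3 peak within 1 kb of a start site in both treatments, against 59.3% of protein-coding genes in DMSO and 58.7% in JNKi. H3K4me3 marks start sites of genes in use or poised for use, and its peak is a measure of the mark and not of transcript level. The windows held 27 H3K4me3 peaks in DMSO and 25 in JNKi, with 9 at the genes' own start sites in each.

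Most of these start-site peaks were wide. In DMSO the 9 peaks measured 2391 bp at Slc2a2, 3207 bp at Ucn3, 4610 bp at Cpe, 5149 bp at Ptprn and 5155 bp at Abcc8. Those of Slc30a8 (5901 bp), G6pc2 (6879 bp), Pcsk1 (7020 bp) and Pcsk2 (8729 bp) were wider still. In JNKi the order was nearly the same, from 2110 bp at Slc2a2 to 8673 bp at Pcsk2. The median over the 9 genes was 5155 bp for DMSO and 5323 bp for JNKi, against 2599 and 2665 bp over the 12709 genes marked in both lists. Slc2a2 lay below the latter medians in both lists.

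A width of at least 5 kb, a limit chosen after the values were seen, was reached by 6 of the 9 genes in each list (G6pc2, Abcc8, Pcsk1, Pcsk2, Slc30a8 and Ptprn), against 5.14% of marked genes in DMSO and 5.31% in JNKi. A merged peak spans the intervals of both replicates, and Abcc8 and Ptprn lay on either side of the limit by single replicates. The Ptprn interval measured 4785 and 5149 bp in the DMSO replicates and 4993 and 4977 bp in the JNKi ones, and that of Abcc8 measured 4919 and 5089 bp, then 5323 and 4915 bp. By the first and second replicate column alone, 4 and 6 genes reached 5 kb in DMSO (4.63% and 4.65% of marked genes), and 5 and 4 did in JNKi (5.04% and 4.14%). G6pc2, Pcsk1, Pcsk2 and Slc30a8 did so in every replicate. Wide start-site peaks were not particular to the 9 genes. By merged peaks, 4 of the 6 β cell markers reached 5 kb under DMSO, and 5 did under JNKi. A wider list of 27 genes, described further below, had 7 such genes under DMSO and 6 under JNKi. Among the 14 markers of other cells, 0 reached this width under either treatment. Between the treatments, the width ratio of JNKi over DMSO ran from 0.882 at Slc2a2 to 1.10 at Slc30a8, and 90% of all genes marked in both lists lay between 0.852 and 1.18.

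**Figure D3:**
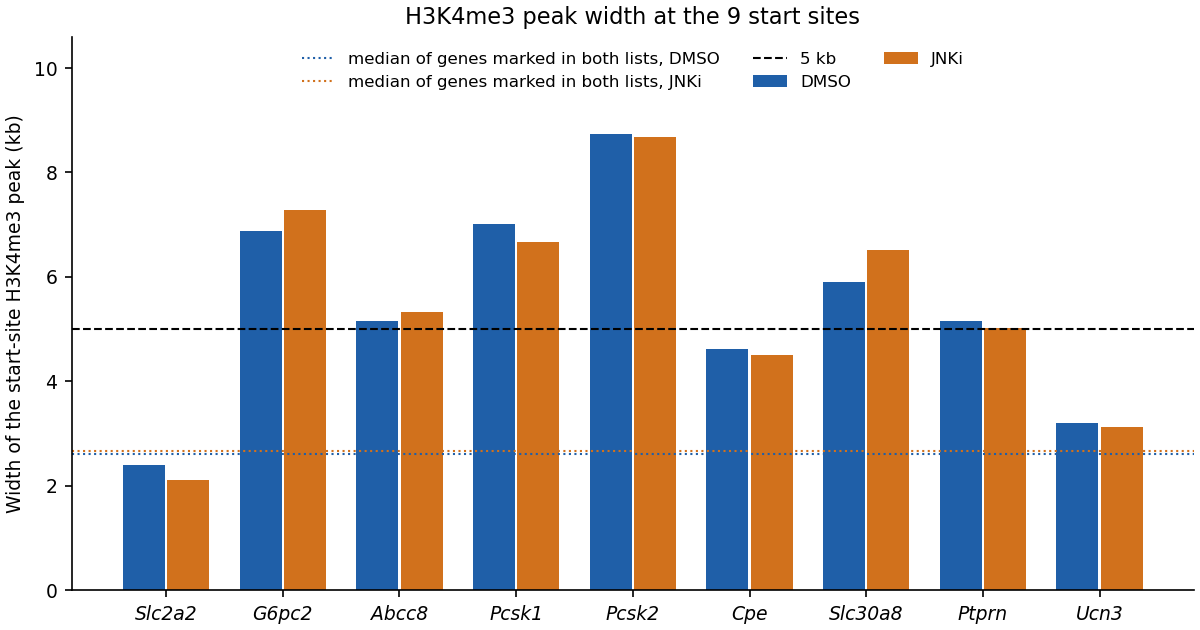
Width in kb of the H3K4me3 peak at each gene's start site in DMSO (blue) and JNKi (orange), with the median of the genes marked in both lists dotted and 5 kb dashed. Each bar is 1 merged peak, which spans the intervals of both replicates, and 6 of the 9 genes lie above 5 kb in both treatments, Ptprn in JNKi through the merging.

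The start-site peaks differed widely in rank. Abcc8 (596 and 561 in DMSO, 484 and 555 in JNKi), Pcsk1 (662 and 530, 611 and 669), Pcsk2 (633 and 562, 717 and 679) and Ptprn (646 and 560, 774 and 770) stood at percentile 95.6 or above in both lists. Ptprn ranked 126 of 19372 in DMSO and 15 of 19032 in JNKi. At Cpe, the replicates gave 471 and 327 in DMSO and 518 and 527 in JNKi, which is percentile 87.1 and then 97.1. At Slc30a8 they gave 276 and 294, then 349 and 365, at percentiles 80.1 and 84.0.

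The other 3 start sites ranked lower. Slc2a2 had 53.6 and 44.4 in DMSO (percentile 39.6) and 32.7 and 34.0 in JNKi (percentile 34.1). Ucn3 had 35.3 and 39.0 in DMSO (percentile 36.4) and 62.7 and 57.2 in JNKi (percentile 40.7). In both genes the replicates of a list lay close together. At G6pc2 they did not, with 303 and 4.30 in DMSO and 372 and 6.51 in JNKi, a 70.7-fold and a 57.2-fold difference. Its peak stood at percentile 2.78 in DMSO and 9.02 in JNKi by its weaker replicate, and at 75.2 and 77.9 by its stronger one. The values paired at G6pc2 belong to different summits, 989 bp apart in DMSO and 441 bp in JNKi, within intervals of similar width (6764 and 6743 bp, then 7290 and 6389 bp), and the part of this pairing in the low values was not tested. Summits also lay far apart at Pcsk1 (1149 bp) and Ucn3 (1228 bp) in JNKi, where the values were close. Replicates at least 10-fold apart were found for 1 of the 27 DMSO H3K4me3 peaks of these genes (2.11% of the list) and 2 of the 25 JNKi ones (2.07%), the second being at the start site of Dnajb2 in the Ptprn window.

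**Figure D4:**
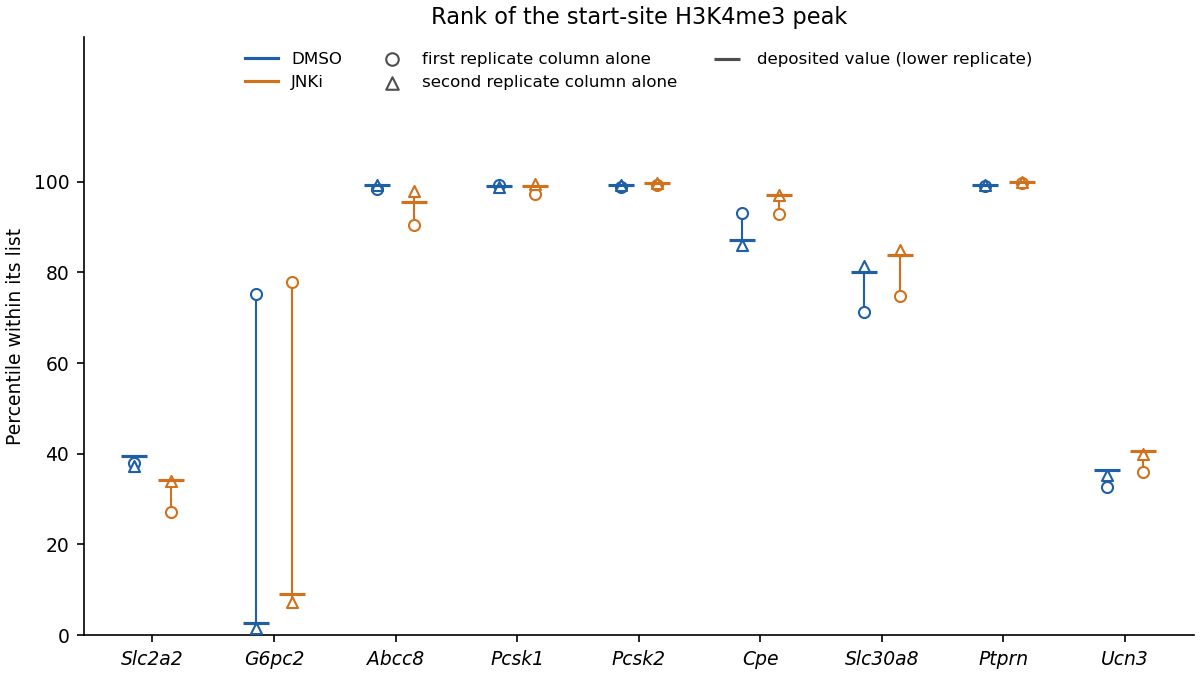
Percentile of each start-site H3K4me3 peak within its list, by the deposited value (dash) and by each replicate column alone (circle, triangle), for DMSO (blue) and JNKi (orange). The replicates of G6pc2 lie far apart in both treatments, and those of the other 8 genes lie closer together.

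From DMSO to JNKi, none of the 9 start-site peaks moved by 10 percentile points or more, against 6.92% of genes that rose and 7.97% that fell by as much. The shifts ran from −5.43 at Slc2a2 to 9.98 at Cpe. The Cpe shift lay just under the limit and rested on the second replicate column, which gave 11 where the first gave −0.14. The Slc2a2 shift was −10.8 by the first column and −3.40 by the second.

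The length covered by H3K4me3 in each window gave ratios of JNKi over DMSO from 0.933 at G6pc2 to 1.10 at Slc30a8. A change of 1.5-fold or more was seen for 0 of the 9 genes in either direction, against 0.492% of genes covered in both lists that rose and 0.901% that fell. Of the 27 DMSO H3K4me3 peaks, 24 were overlapped in JNKi (93.4% over the list), and 23 of the 25 JNKi ones were overlapped in turn (94.3%). With summits at most 200 bp apart the shares were 55.6% and 60%, against 82.1% and 83.6% over the lists. The DMSO peaks without a counterpart were 2 narrow ones at G6pc2 and 1 at Ptprn (chr1:75282923-75283698). The Ptprn one underlies the third cJun peak of that window, so neither peak was listed at this site in JNKi. The unmatched JNKi peaks were 1 upstream of Slc2a2 and 1 upstream of Abcc8, 229 and 440 bp wide.

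IDR would remove several of the strongest start-site peaks. In DMSO it exceeded 0.05 at G6pc2 (0.306) and Abcc8 (0.0627). In JNKi it did so at G6pc2, Pcsk1 and Ptprn, each at the list's highest value of 0.282, and at Pcsk2 (0.079). Of the highest 10% of H3K4me3 peaks by −log10 p, 89.6% met 0.05 in the DMSO list and 85.8% in the JNKi list.

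The remaining H3K4me3 peaks in the windows, 18 in DMSO and 16 in JNKi, were 229 to 11375 bp wide, and 8 in each list had their midpoint within 1 kb of a neighbour's start site. The widest, 11375 bp for DMSO and 10694 bp for JNKi, spanned the start site of Spc25 in the G6pc2 window. Kcnj11 carried a start-site peak 5647 bp wide in DMSO (percentile 66.9) and 5096 bp wide in JNKi (percentile 66.3), percentiles below those of its partner Abcc8.

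Promoter sequence from RefSeq (GRCm38), from 250 bases before to 50 after a start, was matched for 6 of the 9 genes (all but Abcc8, Cpe and Slc30a8), with 8 promoters. An AP-1 site was in 0 of these 8, against 5.2% of 32851 promoters. A CRE was in 1 of the 8, that of Pcsk1, against 1.79%. The Pcsk1 promoter is shown on its own strand with the CRE in capitals, since it lies under the 7020 bp H3K4me3 peak and has no cJun peak over it in either list.
Pcsk1, chr13:75089607-75089906: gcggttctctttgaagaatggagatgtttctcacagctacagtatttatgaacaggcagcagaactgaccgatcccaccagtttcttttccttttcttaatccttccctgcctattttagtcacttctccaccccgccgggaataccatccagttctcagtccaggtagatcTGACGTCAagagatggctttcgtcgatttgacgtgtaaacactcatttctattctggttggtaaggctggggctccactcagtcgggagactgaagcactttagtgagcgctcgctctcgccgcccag

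A wider list of 27 genes of glucose metabolism, ion channels, peptide processing and the granule was counted in the same way. Of these, 14 had a cJun peak within 50 kb in DMSO, 9 in JNKi and 7 in both, beside the backgrounds of 28.4%, 12.2% and 10.2%. The 7 were Hk1, Kcnj11, Chga, Scg2, Scg3, Ero1lb and P4hb. Genes with peaks in DMSO alone included Slc2a1, Cacna1c, Gpi1, Scg5, Pam and Ptprn2, and peaks in JNKi alone were found at Furin and Chgb. The most peaks were at Ero1lb, an oxidase of disulfide formation in the endoplasmic reticulum, with 6 in DMSO and 1 in JNKi. Chga and Scg3, granins that take part in forming the granule, each had 4 in DMSO and 2 in JNKi. Pam, which amidates peptide hormones, had 4 in DMSO and 0 in JNKi, and Scg5, the chaperone of Pcsk2, had 3 and 0. H3K4me3 lay at a start site of 25 of the 27 genes in DMSO and 24 in JNKi, beside 59.3% and 58.7% of all protein-coding genes.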

How the data were processed

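The 4 lists of merged peaks were searched around the 9 genes. Per the submitters' processing notes and the study's methods, reads were trimmed with Trimmomatic, checked with FastQC, aligned to GRCm38 with Bowtie2 2.4.2, filtered with SAMtools 1.16, called as narrow peaks per replicate against IgG with MACS2 2.2.7.1 and paired with IDR. A merged peak's deposited −log10 p-value is the lower of those of its replicates, which carry no replicate number and are called first and second column. The deposited scores are the IDR on a −log10 scale. Each list begins just above a −log10 p of 3, a p of 0.001, and none was limited by IDR. Read totals were not analysed here.

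Gene bodies and start sites came from GENCODE vM21 (basic, without chromosomes Y and M). Peaks overlapping by at least 1 bp between treatments were called shared. Motifs were searched on both strands. Named were the 9 genes with every cJun peak and start-site H3K4me3 peak, nearest neighbours of named peaks, and genes of the wider list with a cJun peak, of which 1 is not reported here. The genes and lists were chosen with earlier results of these data known. With 1 list per treatment no test was made. Overlap, rank and motif steps were checked on simulated data. Analyses used Python 3.11.15, pandas 2.3.3, pysam 0.24.0, samtools 1.23.1 and matplotlib 3.10.9. Alternatives covered windows, IDR limits, overlap rules, replicate columns and motif windows.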

Additional observations from a re-analysis of the deposited data

How the results depend on the processing

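Of 86 alternative values, 61 stayed near the reported ones, 25 moved and 0 reversed. The cJun results depended most on IDR. At most 0.05 left 2 of the 18 DMSO peaks, both at Abcc8 (1 gene, against 4.22% of all genes), and 0 JNKi peaks (2.74%), and at most 0.01 left 0 genes and 0 peaks in either list (2.29% and 1.28% of all genes). Assigning peaks to the nearest start site left 2 genes with a JNKi cJun peak, against 5.13% of all genes. H3K4me3 peaks numbered 13 in DMSO and 15 in JNKi with a 10 kb window, and 16 and 15 at an IDR of at most 0.01. Summits at most 200 bp apart gave shared shares of 55.6% of the DMSO and 60% of the JNKi H3K4me3 peaks (82.1% and 83.6% over the lists). The median percentile was 43.7 for DMSO cJun by the second replicate column and 72.4 for JNKi H3K4me3 by the first. At an IDR of at most 0.05, covered length rose 1.5-fold at 1 gene (Abcc8, 1.85) and fell at 1 (Ptprn, 0.535), and Pcsk1 and Pcsk2 had no JNKi peak left. The limit removes the DMSO start-site peak of Abcc8 and, at Ptprn in JNKi, the start-site peak and 2 others, and 5 genes then kept a JNKi start-site peak. AP-1 sites were in 7 DMSO and 3 JNKi peaks over the whole peak, and in 1 and 0 within 50 bp of the summit (5.56% and 6.74% over the lists). At 6 kb in place of 5 kb, 3 genes had a wide DMSO start-site peak and 4 a JNKi one (2.16% and 2.14% of marked genes). The IDR limit on start-site peaks, the 5 kb width and its alternatives were added after seeing the data. No paired analysis was possible because the replicate columns carry no numbers and no result comes from a test. Leaving out a replicate was not run, and ranking by either replicate column stands in its place.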

Other observations

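The gap between replicates seen at the G6pc2 start site also occurred at other genes of the granule and secretory pathway, which were chosen after their values were seen. The start-site H3K4me3 peak of Chga, a granin, had replicate values of 613 and 8.62 in DMSO and 579 and 520 in JNKi, and stood at percentile 15.2 and then 97.2. Scg2, another granin, had 624 and 4.80 in DMSO (percentile 4.18) and 540 and 442 in JNKi (percentile 93.0). P4hb, a protein disulfide isomerase, went the other way, with 761 and 665 in DMSO (percentile 99.9) and 780 and 5.80 in JNKi (percentile 6.84). At Ero1lb, whose peak was 17317 bp wide in DMSO and 17545 bp in JNKi, the second column was low in both treatments, with 521 and 4.25 and then 670 and 6.87. Ptprn2, a relative of Ptprn, had its low value in the first column, with 16.5 and 254 in DMSO (percentile 26.2) and 325 and 267 in JNKi (percentile 72.1). In each of these gaps the values belong to summits that lie apart, by 863 bp at Chga, 2215 bp at Scg2, 1893 bp at Ptprn2 and 3280 bp at P4hb, and by 676 and 1715 bp at Ero1lb. Summits far apart also occurred with close values, as at Scg3 in JNKi (1090 bp, 737 and 591). At Pdx1, a β cell transcription factor outside this pathway, the DMSO start-site peak had both values low (3.01 and 10.5) with summits 111 bp apart, and the JNKi peak had 734 and 8.29 (percentile 13.7) with summits 2430 bp apart.

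Over the H3K4me3 lists, 409 DMSO and 394 JNKi peaks had replicates at least 10-fold apart, with the second column lower in 236 and 337 of them. In the whole lists, the first column was the higher for 68.2% of the DMSO and 82.3% of the JNKi peaks. The peaks at least 10-fold apart were wide, with medians of 3582 and 3762.5 bp against 1839 and 1907 bp over the lists. Of them, 71 in each list were overlapped by such a peak in the other. The summits paired in them lay a median of 863 bp apart in DMSO and 934.5 bp in JNKi, against 36 and 29 bp over the lists. Of the 399 DMSO and 325 JNKi peaks with summits at least 1 kb apart, 42.4% and 55.4% had values at least 10-fold apart. The part of this pairing in the lower values was not tested.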
